A study of Mus musculus with 57 samples.

Results

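The 4 genes described here encode cytochrome P450 enzymes that turn drugs and solvents into reactive products: Cyp2e1, Cyp1a2, Cyp1a1 and Cyp1b1. They were picked by symbol, as 4 of the 54307 genes in the table, and each symbol matched 1 Ensembl gene ID (ENSMUSG00000025479.10, ENSMUSG00000032310.5, ENSMUSG00000032315.7 and ENSMUSG00000024087.5, in that order). RNA was sequenced from the whole liver lobe of 57 mice, 40 of them given 1 of 7 liver toxicants and 17 given a vehicle. The series was made to assess the estimation of cell-type shares from whole-liver RNA.

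All mice were wild-type C57BL/6JJcl males, 6 weeks old before 1 week of acclimatisation, fasted for 12 h before dosing and killed 24 h after it. By gavage, 4 mice were given ANIT (alpha-naphthyl isothiocyanate), 6 APAP (acetaminophen), 7 MDA (4,4'-methylene dianiline) and 5 TAA (thioacetamide), and their controls were 13 mice given 0.5% methylcellulose (Ctrl). By the intraperitoneal route, 7 mice received CCl4 and 4 received GAL (galactosamine), against 2 mice given 0.9% saline (CIP). ConA (concanavalin A) was injected into the tail vein of 7 mice, against 2 mice given saline that way (CIV). Corn oil is named in the labels too, without saying for which compound, and none of the 17 vehicle mice received it. An effect of corn oil therefore cannot be told apart from that of a compound given in it. The labels state no mass dose per compound, so the compounds are not compared at matched doses.

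Cytochrome P450 enzymes sit in the endoplasmic reticulum and take electrons from the reductase Por and from cytochrome b5 (Cyb5a). Cyp2e1 converts ethanol, acetaminophen, CCl4 and thioacetamide, and its products from these compounds can injure the cell that makes them. Cyp1a2 oxidises caffeine and aromatic amines and takes part in acetaminophen oxidation. Both are made mainly by the hepatocytes around the central vein, under Wnt signalling. Cyp1a1 is low in the untreated liver and is induced when the aryl hydrocarbon receptor (Ahr) binds a ligand, pairs with Arnt and binds DNA at a core of GCGTG. Cyp1b1, an oestrogen and hydrocarbon hydroxylase, is known mainly from tissues outside the liver and from non-parenchymal cells.

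The windows from 250 bases before to 50 bases after each start site are printed to show which of the marked letters each start region holds, since the 4 members did not all change alike. They are RefSeq sequences in build GRCm38.p6 (the submitters' processing notes name GRCm39 for the data), and all 4 members matched an entry. Capitals mark TATAAA, the TATA box letters, and GCGTG, the receptor core, which reads CACGC when it lies on the other strand. The Cyp2e1 window is chr7:140763569-140763868 (plus strand), that of Cyp1a1 is chr9:57697363-57697662 (plus), that of Cyp1a2 is chr9:57683606-57683905 (minus) and that of Cyp1b1 is chr17:79715012-79715311 (minus).
Cyp2e1: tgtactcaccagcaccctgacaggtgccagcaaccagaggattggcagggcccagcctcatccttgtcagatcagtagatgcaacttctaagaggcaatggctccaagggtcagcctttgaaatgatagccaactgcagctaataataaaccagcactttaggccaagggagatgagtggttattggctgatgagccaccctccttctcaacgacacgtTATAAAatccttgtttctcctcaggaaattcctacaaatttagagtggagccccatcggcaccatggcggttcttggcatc
Cyp1a2: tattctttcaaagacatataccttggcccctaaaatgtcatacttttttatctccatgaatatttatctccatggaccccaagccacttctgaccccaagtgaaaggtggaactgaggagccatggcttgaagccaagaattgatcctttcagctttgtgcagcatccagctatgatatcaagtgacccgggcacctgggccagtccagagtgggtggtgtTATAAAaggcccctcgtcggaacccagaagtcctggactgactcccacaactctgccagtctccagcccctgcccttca
Cyp1a1: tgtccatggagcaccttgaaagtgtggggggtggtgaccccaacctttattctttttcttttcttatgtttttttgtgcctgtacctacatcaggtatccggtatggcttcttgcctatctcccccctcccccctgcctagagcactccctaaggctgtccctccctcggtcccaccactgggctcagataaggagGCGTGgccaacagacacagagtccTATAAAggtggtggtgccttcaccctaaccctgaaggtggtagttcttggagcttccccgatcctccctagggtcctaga
Cyp1b1: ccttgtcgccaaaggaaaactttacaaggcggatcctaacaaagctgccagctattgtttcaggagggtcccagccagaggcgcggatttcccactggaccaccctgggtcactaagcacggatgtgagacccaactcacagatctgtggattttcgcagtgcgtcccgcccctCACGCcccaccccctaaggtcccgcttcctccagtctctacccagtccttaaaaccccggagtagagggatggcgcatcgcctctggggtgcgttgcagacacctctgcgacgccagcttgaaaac
TATAAA was found in 3 of the 4 windows, beginning at -31 in Cyp2e1, -29 in Cyp1a2 and -30 in Cyp1a1 from the start site. GCGTG was found in Cyp1a1 at -54 and, as CACGC, in Cyp1b1 at -76. The longer TNGCGTG was in 0 of the 4. Searched on both strands, 13.6% of 32851 such windows held TATAAA, 32.4% held GCGTG and 5.07% held TNGCGTG. These matches describe letters and show no binding.

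Column totals ran from 13826343 to 35075809 estimated counts, and mitochondrial genes took 5.11% to 39.3% of them (median 14.5%), the highest in ConA mouse 2. Levels below are CPM, the usual unit of counts scaled to library size, here with TMM factors over all 57 mice, and the estimated counts look corrected for gene length. A gene is called higher or lower at an adjusted p under 0.05 in edgeR's quasi-likelihood test against the route vehicle, and fold changes are log2 values with their SE from that fit. The hepatocyte markers Alb, Ttr, Apoa1, Apob, Fga and Trf summed to 28900 to 141000 CPM in every mouse. No member was called between vehicle routes: against Ctrl, Cyp2e1 differed by -0.10 in CIP and -0.07 in CIV, and 0.0131% and 0.0263% of all genes were called. With 2 CIP and 2 CIV mice this does not show that the routes are alike. Members are also compared with all 17 vehicle mice, which assumes that they are, where 28% (ANIT), 33.4% (APAP), 34.2% (MDA), 49.7% (TAA), 53.4% (CCl4), 52.5% (GAL) and 68% (ConA) of all genes were called. In whole-liver RNA, fewer cells of a type and less RNA per cell cannot be told apart. Nothing in the labels says how the mice of a group were housed or dosed, so p-values measure the spread between these animals. Scaling bears on 5 comparisons: with library totals in place of TMM the share of called genes that were higher went from 49.5% to 23.7% for ANIT, from 54.3% to 72.5% for APAP, from 53.6% to 80.6% for CCl4, from 44.9% to 86.7% for GAL and from 49.3% to 22.7% for ConA. Over all genes the median log2 change moved with it, from -0.01 to -0.23, 0.07 to 0.22, 0.10 to 0.53, 0.08 to 0.84 and 0.03 to -0.56.

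**Figure D1:**
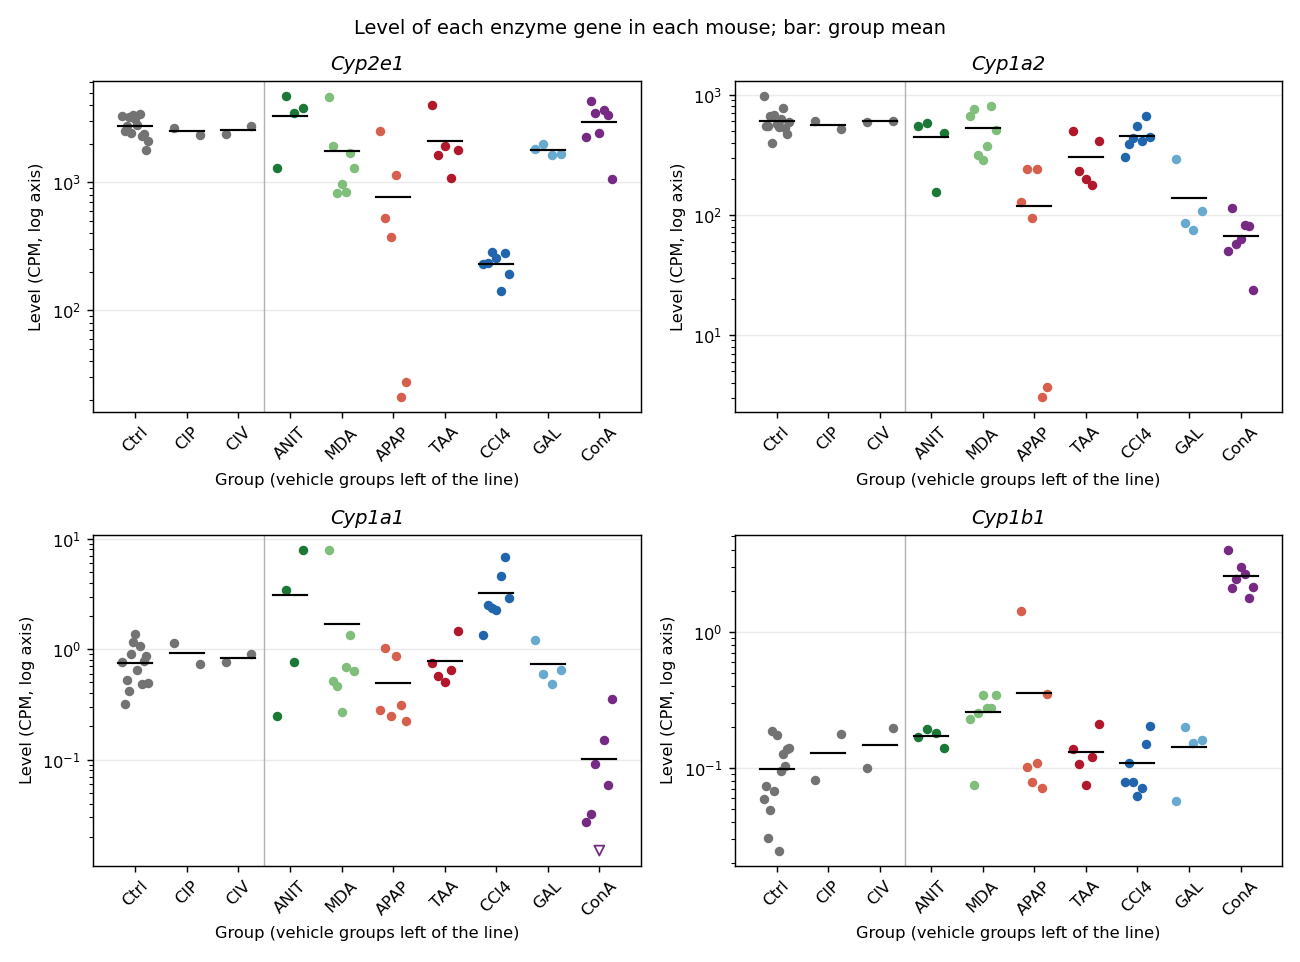
Level of each of the 4 genes (CPM, log axis) in each mouse, by group, with the group mean as a bar; the open triangle is the ConA mouse with no Cyp1a1 count. All 7 CCl4 mice lie between 140 and 285 CPM for Cyp2e1, under every vehicle mouse, and all 7 ConA mice lie between 1.76 and 3.99 CPM for Cyp1b1, above every vehicle mouse.

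Cyp2e1 was the most abundant of the 4 in the vehicle livers and fell furthest after CCl4. The 13 Ctrl mice had 1780 to 3420 CPM (median 2730), the CIP mice 2660 and 2320, and the CIV mice 2370 and 2750. The 7 CCl4 mice had 228, 232, 285, 257, 140, 280 and 190 CPM. Every CCl4 value was thus below every vehicle value, and the CCl4 group varied little (CV 22.3%). The mean was 10.8-fold lower than in CIP (230 ± 51.4, SD, n = 7, against 2490 ± 239, n = 2), and the fit gave -3.46 ± 0.20 in log2 (edgeR adjusted p = 6.11e-06). The same difference from all 17 vehicle mice was -3.57 ± 0.16 (edgeR adjusted p = 1.06e-15). Of the 3 members tested after CCl4, 1 was called higher and 1 lower, where 33.5% of all genes tested were called (18% higher and 15.6% lower).

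After APAP the highest mouse had 119 times the level of the lowest, the largest such ratio of any group. Mice 1, 2, 4, 6, 8 and 11 had 2510, 523, 373, 1130, 21.0 and 27.4 CPM of Cyp2e1. Mouse 1 lay inside the Ctrl range, the other 5 lay below it, and mice 8 and 11 held almost no transcript. The mean was 3.57-fold lower than in Ctrl (763 ± 946, SD, n = 6, against 2720 ± 527, n = 13), and the fitted log2 difference was -1.76 ± 0.65 (edgeR adjusted p = 0.0444). The call was lost in 16 of 19 fits that left out 1 mouse, with values from -2.71 (without APAP mouse 1) to -1.50 (without mouse 8). Members called after APAP were 2 of 3, both lower, where 31.8% of all genes were called and 14.6% were lower. The hepatocyte markers were not low in this group, with 2 of 6 called higher and 0 lower, and their sum was 77200 to 110000 CPM against 62000 to 128000 in Ctrl.

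After GAL, Cyp2e1 was slightly lower and varied little between mice. The 4 mice had 1800, 1980, 1630 and 1660 CPM, all below both CIP mice. It differed from CIP by -0.57 ± 0.15 in log2 (edgeR adjusted p = 0.0321), but with library totals in place of TMM it turned to 0.19, and it lost its call in 5 of 6 fits that left out a mouse. Against all 17 vehicle mice it was -0.66 ± 0.14 on the TMM scale. GAL called 2 of 3 members, both lower, against 28.5% of all genes called and 15.7% lower. All 6 hepatocyte markers were called lower after GAL, their sum being 28900 to 36000 CPM against 61500 and 66700 in CIP. With library totals 3 of the 6 were called lower, and their median went from -1.44 to -0.65. The part of this loss in the fall of Cyp2e1 was not tested.

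In the MDA and TAA groups the mouse numbered 1 stood above the rest. MDA mice 1, 2, 3, 4, 7, 8 and 12 had 4590, 1930, 828, 974, 838, 1700 and 1290 CPM of Cyp2e1. Mouse 1 exceeded every Ctrl mouse, 5 others lay below every Ctrl mouse, and mouse 2 lay within the Ctrl range. The group differed from Ctrl by -0.64 ± 0.27 in log2 (edgeR adjusted p = 0.0727), and without mouse 1 it was -1.11 (edgeR adjusted p = 0.000123). None of the 3 members tested was called after MDA, where 33.8% of all genes were. TAA mice 1, 3, 6, 7 and 8 had 4030, 1640, 1920, 1080 and 1790 CPM. Again mouse 1 exceeded every Ctrl mouse, while mice 3 and 7 lay below every Ctrl mouse and mice 6 and 8 lay within them. The log2 difference of -0.32 ± 0.23 missed the threshold (edgeR adjusted p = 0.257), and without mouse 1 it was -0.74 (edgeR adjusted p = 0.00225). TAA called 1 of 3 members, lower, against 50.5% of all genes called and 24% lower.

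ANIT and ConA left Cyp2e1 without a called change. ANIT mice 1 to 4 had 1300, 4700, 3450 and 3790 CPM: mouse 1 was below every Ctrl mouse and the other 3 were above every one. In log2 the group differed by 0.27 ± 0.23 (edgeR adjusted p = 0.409), and without mouse 1 it was 0.53 (edgeR adjusted p = 0.0275). ANIT called 1 of 3 members, higher, against 28.2% of all genes called and 14% higher. The ConA mice had 1060 to 4310 CPM (median 3350), a range that holds both CIV values, with 3 mice above and 1 below every one of the 17 vehicle mice. In log2 they differed by 0.21 ± 0.43 (edgeR adjusted p = 0.738). Of the 3 members tested in every comparison ConA called 1, lower, against 34.2% of all genes called and 17.3% lower. Cyp1b1, called higher there as were 16.8% of all genes, passed the count filter through the ConA mice and is not counted.

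**Figure D2:**
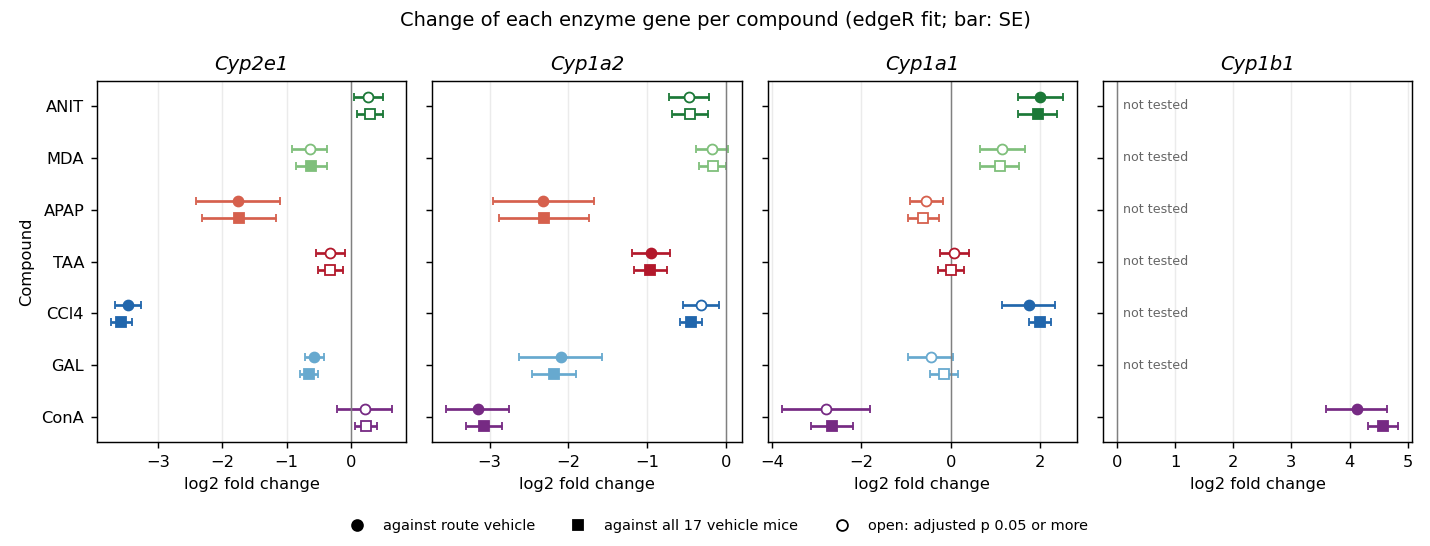
Log2 fold change of each gene after each compound with its SE from the edgeR fit; circles are against the route vehicle, squares against all 17 vehicle mice, filled where the adjusted p is under 0.05. Cyp2e1 has its lowest value after CCl4 (-3.46), Cyp1a2 after ConA (-3.15), and Cyp1b1 is shown after ConA alone (4.12), since it passed the count filter there through the ConA mice and was under it elsewhere. Cyp1a1 after ConA passed it through the vehicle mice alone, so its filled square is not read as a call.

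Cyp1a2 had its largest fall after ConA, where the difference of Cyp2e1 was not called. Ctrl mice had 395 to 976 CPM of Cyp1a2 (median 570), CIP mice 608 and 515, and CIV mice 598 and 605. The ConA mice had 50, 114, 57.2, 62.8, 81.7, 81.3 and 23.6 CPM. Every ConA value was below every vehicle value. The mean was 8.94-fold lower than in CIV (67.3 ± 28.7, SD, n = 7, against 601 ± 4.49, n = 2), or -3.15 ± 0.40 in log2 (edgeR adjusted p = 0.000323). Leaving out any mouse gave -3.34 to -3.00. Mitochondrial genes took 14.6% to 39.3% of the counts in the ConA mice against 6.79% and 25.4% in CIV and 7.48% to 21.8% in Ctrl, and 6 of the 7 ConA mice had 19.1% or more. The part of this in the ConA differences of Cyp1a2, Cyp1a1 and Cyp1b1 was not tested.

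Cyp1a2 was also lower after GAL and APAP. The GAL mice 2, 4, 7 and 8 had 291, 85.4, 74.5 and 107 CPM, all below every vehicle mouse, and mouse 2 was the highest of them. In log2 this was -2.10 ± 0.53 (edgeR adjusted p = 0.0300). It was -2.18 ± 0.28 against all 17 vehicle mice (edgeR adjusted p = 8.52e-07) and -1.29, no longer called, with library totals in place of TMM. The call against CIP was also lost in 5 of 6 fits that left out 1 mouse, with values from -2.71 to -1.88. The APAP mice 1, 2, 4, 6, 8 and 11 had 129, 243, 94.4, 243, 3.05 and 3.68 CPM. All 6 were below every Ctrl mouse, and mice 8 and 11 were again the lowest. The mean was 5.10-fold lower than in Ctrl, or -2.32 ± 0.64 in log2 (edgeR adjusted p = 0.0088), and it kept its call in every fit that left out a mouse (-2.65 to -2.06). The call was lost with mice numbered above 4 alone (-2.76, edgeR adjusted p = 0.0898) and with the replicate block (-3.23, edgeR adjusted p = 0.176).

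After TAA, Cyp1a2 was 2.01-fold lower in the mean. TAA mice 1, 3, 6, 7 and 8 had 497, 230, 199, 177 and 414 CPM, so that 3 of the 5 lay below every Ctrl mouse. In log2 this was -0.95 ± 0.24 (edgeR adjusted p = 0.0023), a call lost with all 10 groups in 1 fit (-1.01, edgeR adjusted p = 0.0916). CCl4 left 303 to 661 CPM (median 433), a log2 difference of -0.32 ± 0.23 from CIP that was not called (edgeR adjusted p = 0.317). Against all 17 vehicle mice the CCl4 difference was -0.44 ± 0.14 and was called lower (edgeR adjusted p = 0.00887), where 53.4% of all genes were called. Neither MDA (287 to 812 CPM, -0.18, edgeR adjusted p = 0.504) nor ANIT (155 to 578 CPM, -0.47 ± 0.25, edgeR adjusted p = 0.175) passed the test.

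The level of Cyp1a2 relative to Cyp2e1 within a mouse does not depend on how libraries are scaled. In the 17 vehicle mice Cyp1a2 stood at 16.4% to 33.8% of Cyp2e1. After CCl4 it stood at 133%, 167%, 152%, 214%, 291%, 236% and 237% in mice 1, 5, 6, 8, 10, 11 and 12. In each of these 7 mice Cyp1a2 exceeded Cyp2e1, which it did in no vehicle mouse. After ConA the share was 1.64% to 2.65%, and after GAL it was 16.2%, 4.31%, 4.58% and 6.44% in mice 2, 4, 7 and 8. So CCl4 lay above all vehicle mice and ConA and GAL below all of them. On log2((CPM + 1)/(CPM + 1)), the difference from all 17 vehicle mice was 3.14 for CCl4 (exact two-sided permutation p = 5.78e-06, adjusted 4.05e-05 over 28 tests), the smallest p the design allows. ConA gave -3.29 with the same exact permutation p, and GAL gave -1.72 (exact permutation p = 0.000334, adjusted 0.00104, also the smallest possible). Against their own route vehicle these 3 groups had 2 controls, and the exact test could not go below 0.0556 (CCl4 and ConA) or 0.133 (GAL).

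Of the gavage compounds, the share of Cyp1a2 to Cyp2e1 was higher after MDA and lower after TAA. MDA mice stood at 14.4% (mouse 1) and 29.5% to 47.7% (the other 6), and 5 of 7 were above every Ctrl mouse. The difference was 0.62 (exact permutation p = 0.00831, adjusted 0.0155). TAA mice stood at 10.3% to 23.2%, with 3 of 5 below every Ctrl mouse and a difference of -0.60 (exact permutation p = 0.007, adjusted 0.014). The APAP mice ranged from 5.15% (mouse 1) to 46.5% (mouse 2) and differed from Ctrl by -0.27 (exact permutation p = 0.443, adjusted 0.443). In mice 8 and 11, where both transcripts were nearly gone, the share was 14.5% and 13.4%. ANIT mice ranged from 4.50% to 42.4%, a difference of -0.75 (exact permutation p = 0.102, adjusted 0.119). Over the 57 mice the log2(CPM + 1) of Cyp1a2 and Cyp2e1 correlated with r = 0.438, and with r = 0.825 for deviations from the group means. These values share library and scaling, and the APAP mice, with the widest range of both genes, bear on the latter. Not every group went that way. ANIT mouse 1 had the lowest Cyp2e1 of its group (1300 CPM) with 550 CPM of Cyp1a2. ANIT mouse 3 had the lowest Cyp1a2 (155 CPM) with 3450 CPM of Cyp2e1.

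**Figure D3:**
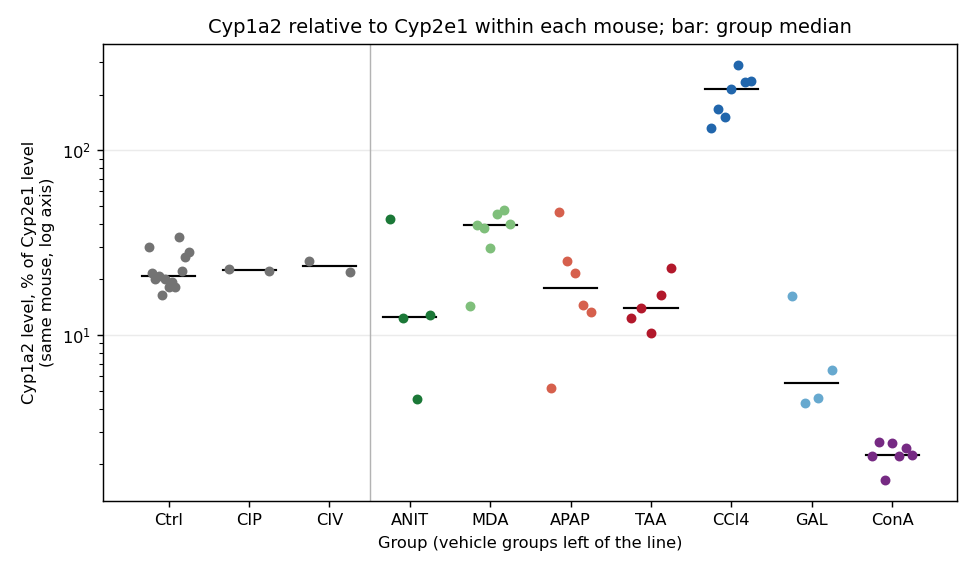
Cyp1a2 as a percentage of Cyp2e1 in the same mouse (log axis) by group, with the group median as a bar. CCl4 mice lie at 133% to 291%, the 17 vehicle mice at 16.4% to 33.8%, and ConA mice at 1.64% to 2.65%.

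Cyp1a1 was near 1 CPM or below in most livers: 39 of the 57 mice had less than 1 CPM. Ctrl mice had 0.318 to 1.36 CPM (median 0.761), CIP mice 1.13 and 0.732, and CIV mice 0.758 and 0.899. After CCl4 the mice had 1.34, 2.53, 2.38, 2.25, 4.59, 6.81 and 2.92 CPM. All of these were above both CIP mice, and the lowest was just under the highest Ctrl mouse. In log2 the rise was 1.75 ± 0.60 against CIP (edgeR adjusted p = 0.0494), a call lost in 7 of 9 fits that left out a mouse (1.44 to 2.08), and 2.01 ± 0.25 against all 17 vehicle mice (edgeR adjusted p = 1.92e-07).

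After ANIT, mice 1 to 4 had 0.249, 3.45, 0.758 and 7.89 CPM of Cyp1a1. Mice 2 and 4 lay above every Ctrl mouse, mouse 3 lay within them and mouse 1 lay below them. The fitted log2 rise was 2.01 ± 0.51 (edgeR adjusted p = 0.00669), and without mouse 4 it was 0.94 and not called. In the MDA group mouse 1 had 7.95 CPM and the other 6 had 0.268 to 1.35, within or below the Ctrl range. Its log2 difference of 1.16 ± 0.51 (edgeR adjusted p = 0.0854) became -0.19 without that mouse. ConA mice had 0.0273, 0.0325, 0.0913, 0, 0.151, 0.0594 and 0.352 CPM, from 0 to 6.69 estimated counts. Of these only mouse 12 reached into the vehicle range. In log2 the group stood at -2.80 ± 0.99 against CIV (edgeR adjusted p = 0.0501, not called). No ConA mouse reached the minimum count of 10, so the gene passed the filter through the vehicle mice, where it is higher, and the fit without the filter gave -2.86 ± 1.04 (edgeR adjusted p = 0.081, not called). The differences for APAP (-0.55), GAL (-0.45) and TAA (0.08) were not called.

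Cyp1a1 stood at 1.63% of Cyp1a2 or less in every mouse but APAP mice 8 and 11, where it was 10.3% and 6.07% and Cyp1a2 was nearly gone. Its level was 0.0582% to 0.239% of the Cyp1a2 level in the Ctrl mice and 0.410% to 1.12% in the CCl4 mice. The ANIT mice 1 to 4 had 0.0453%, 0.596%, 0.488% and 1.63%. In the GAL mice it was 0.414% to 0.696%, with Cyp1a2 lower and Cyp1a1 at 0.489 to 1.21 CPM. These shares are a description: the planned test adds 1 CPM to each gene, which exceeds Cyp1a1 itself in most mice, and its value is therefore not read (for ConA it went from 2.54 to 0.92 with 0.1 CPM added).

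Cyp1b1 was at the edge of detection in every group but ConA. The 17 vehicle mice had 0.0247 to 0.195 CPM (median 0.10), and 49 of all 57 mice were under 1 CPM. ConA mice 2, 3, 4, 5, 8, 11 and 12 had 3.99, 2.08, 2.44, 3.00, 2.67, 1.76 and 2.12 CPM. Each of them was above every other liver of the series, the highest of which had 1.42 CPM (APAP mouse 1). In estimated counts this was 19.6 to 48.7 per ConA mouse against 3.06 and 6.33 in CIV. The mean was 17.5-fold higher than in CIV (2.58 ± 0.745, SD, n = 7, against 0.147 ± 0.067, n = 2), or 4.12 ± 0.53 in log2 (edgeR adjusted p = 0.000338). Since it passed the count filter only through the ConA mice, where it is high, the fit without that filter is the one to read: 4.09 ± 0.58 (edgeR adjusted p = 0.000798, with 18.4% of all genes called).

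In the other 6 comparisons Cyp1b1 was under the count filter, and it was tested without that filter, a choice made after seeing the data. MDA mice had 0.0754 CPM (mouse 2) and 0.229 to 0.343 CPM (the other 6), the latter all above every Ctrl mouse. Their log2 fold change was 1.35 ± 0.41 (edgeR adjusted p = 0.0238, with 18.8% of all genes called), and the exact permutation test gave p = 8e-04, adjusted to 0.0048 over 6 comparisons. APAP gave 1.76 ± 0.60 (edgeR adjusted p = 0.0461, with 18% of all genes called), but the exact permutation test gave p = 0.106. That group held mouse 1 at 1.42 CPM, mouse 11 at 0.347 CPM and the other 4 at 0.0715 to 0.108 CPM. ANIT (0.76), TAA (0.32), GAL (0.33) and CCl4 (-0.04) were not called, where 14.4%, 33.2%, 12.3% and 18.5% of all genes were.

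Markers of cells that could carry Cyp1b1 moved in the ConA livers as follows. Of 7 stellate cell markers 0 were called higher and 2 lower (Lrat by -3.14 and Colec11 by -1.39, edgeR log2), while the summed stellate level was 353 to 585 CPM against 307 and 330 in CIV. Lrat had 0.112 to 0.443 CPM in the ConA mice against 0.769 and 4.7 in CIV, so its fall is a description. Against all 17 vehicle mice 2 stellate markers were higher (Dcn by 1.77, Ecm1 by 0.64) and 3 lower. Of 6 markers of activated fibroblasts or smooth muscle 0 were higher and 3 lower, among them Acta2 (-1.75), the smooth muscle actin, and Pdgfrb (-1.29). Their sum was 14.1 to 27.1 CPM against 34.5 and 43.8. All 5 Kupffer cell markers were lower (Cd5l by -3.49, Vsig4 by -3.22), with a sum of 24.2 to 49.5 CPM against 267 and 276. Neutrophil markers were higher in 3 of the 4 tested (S100a9 by 5.48, S100a8 by 4.93), with a sum of 126 to 286 CPM against 7.58 and 8.95, and Retnlg was the third. Against all 17 vehicle mice these 3 were also higher and Csf3r was called lower. With library totals against CIV 3 were higher and 1 lower. Cholangiocyte markers were higher in 2 of the 4 tested (Sox9 by 4.86, Epcam by 3.07), with a sum of 31.7 to 68.7 CPM against 3.88 and 7.01. Of 6 markers of the sinusoidal endothelium 2 were higher (Lyve1 by 2.97, Pecam1 by 1.65) and 3 lower (Kdr by -4.56, Clec4g by -2.66, Flt4 by -1.28), with a sum of 66.1 to 132 CPM against 106 and 107. Kdr had 0.34 to 0.743 CPM in the ConA mice against 9.47 and 13.3 in CIV. With library totals 1 endothelial marker was higher and 4 were lower. On that scale 5 fibroblast or smooth muscle markers and 3 stellate markers were lower. Of 3 monocyte markers 1 was higher (Chil3 by 3.50) and 1 lower (Lyz2 by -1.87), with a sum of 24.7 to 48.5 CPM against 53.4 and 78.8. The part of these cells in the Cyp1b1 level was not tested.

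Ordered by mean level over the 10 groups in 1 fit of all mice, neighbouring groups mostly did not differ. Cyp2e1 ran from ANIT (3310 CPM) through ConA (2940), Ctrl (2720), CIV (2560), CIP (2490), TAA (2090), GAL (1770) and MDA (1740) to APAP (763) and CCl4 (230). Of the 9 neighbouring pairs, APAP and CCl4 alone differed (-1.77 ± 0.51, edgeR adjusted p = 0.00866, with 22.4% of all genes called), and with library totals 0 of 9 did. CCl4 was lower than each of the other 9 groups. Cyp1a2 ran from Ctrl (609 CPM), CIV (601), CIP (562), MDA (533), CCl4 (456), ANIT (442) and TAA (303) to GAL (140), APAP (119) and ConA (67.3), and 0 of its 9 neighbouring pairs were called (1 with library totals).

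For the low genes, Cyp1a1 ran from CCl4 (3.26 CPM), ANIT (3.09) and MDA (1.70) through CIP (0.933), CIV (0.829), TAA (0.783), Ctrl (0.752) and GAL (0.734) to APAP (0.494) and ConA (0.102). Its last step, APAP to ConA, was the 1 called (-2.15 ± 0.72, edgeR adjusted p = 0.0144, with 39.7% of all genes called), and limma called 0 of the 9 steps. No ConA mouse reached the minimum count of 10 for Cyp1a1, so that call is not read. Cyp1b1 ran from ConA (2.58 CPM) to APAP (0.355) and then through MDA (0.256), ANIT (0.170), CIV (0.147), GAL (0.143), TAA (0.130), CIP (0.129) and CCl4 (0.108) to Ctrl (0.0977). Its order is a description, since outside ConA only APAP mice 1 and 11 (18.2 and 9.97 estimated counts) came to the minimum count of 10, and the gene passed the filter of this fit through the ConA mice. Of all 45 pairs of groups, 12 were called for Cyp2e1 and 19 for Cyp1a2, where a median of 26% of all genes were called in a pair (0 to 57.7%). The 17 called for Cyp1a1 are not read, since they include pairs with ConA, where no mouse reached the minimum count.

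Ahr, the receptor that drives the Cyp1 genes, was called lower after MDA (-1.03 ± 0.24, edgeR adjusted p = 0.00206), GAL (-0.96 ± 0.29, edgeR adjusted p = 0.0487) and TAA (-0.78 ± 0.18, edgeR adjusted p = 0.000982). It ranged from 1.22 to 18.9 CPM over all mice. Its differences after ANIT (-0.52), APAP (-0.52), CCl4 (-0.49) and ConA (-0.34) were not called, though against all 17 vehicle mice CCl4 was (-0.70 ± 0.17, edgeR adjusted p = 0.000981). Arnt, its DNA-binding partner, was higher after ConA (1.05 ± 0.31), ANIT (0.51 ± 0.12) and MDA (0.30). The chaperone genes Hsp90ab1 and Ptges3, whose products hold the receptor before a ligand binds, were both higher after CCl4 (1.21 and 1.30). Of the 5 genes of this list, 3 were higher after ANIT, 0 after APAP, 1 after MDA, 2 after TAA, 2 after CCl4, 0 after GAL and 1 after ConA, and the list's median lay between -0.03 and 0.41. With library totals that median was 0.92 after GAL and -0.51 after ConA, and the fall of Ahr after GAL (-0.21) and the rise of Arnt after ConA (0.45), ANIT (0.31) and MDA (0.27) lost their calls, while Arnt was called higher after APAP (0.38) and GAL (0.92).

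Other genes known to respond to this receptor gave values as follows. Tiparp, which encodes a polymerase that restrains the receptor, rose most after ConA, where Cyp1a1 was lowest. It had 33.4 to 98.8 CPM in the 7 ConA mice against 0.263 to 3.04 CPM in the 17 vehicle mice, with no overlap (5.26 ± 0.93, edgeR adjusted p = 0.00198). It was also higher after TAA (3.91), APAP (2.56), CCl4 (1.32) and ANIT (1.05), though against all 17 vehicle mice the CCl4 (0.50) and ANIT (1.06) calls were lost, as was the ANIT call with library totals (0.82). It was not called after GAL (1.32) and MDA (0.62). In the APAP group mouse 1, with the most Cyp1b1, also had the most Tiparp (31.3 CPM against 0.762 to 3.69 in the other 5). Aldh3a1, an aldehyde dehydrogenase, had 0.9 to 5.29 CPM in the ConA mice against 0 to 0.0487 CPM in the 17 vehicle mice. It passed the filter in that comparison alone, through the ConA mice, and with vehicle mice at or near 0 no fold is given. Ahrr, the receptor's repressor, was under the count filter in each comparison of a compound with a vehicle.

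Nqo1, a quinone reductase that Nrf2 also controls, was higher after 6 compounds, by 0.83 (CCl4) to 2.18 (GAL). After ConA it differed by -0.71 ± 0.52 and was not called, but against all 17 vehicle mice it was called lower (-0.57 ± 0.21, edgeR adjusted p = 0.0215). Gsta1, a glutathione transferase, was higher after CCl4 (4.1), TAA (3.70), APAP (3.21), MDA (3.15) and GAL (2.30) and lower after ConA (-3.30). Ugt1a6b, a glucuronosyltransferase, was lower after all 7 compounds. Its neighbour Ugt1a6a was lower after ConA (-1.51), GAL (-1.29), APAP (-1.16), TAA (-0.95) and CCl4 (-0.49). With library totals its calls after GAL (-0.51) and CCl4 (-0.05) were lost. The Ugt1a6 genes share most of their exons, so the split of reads between them is uncertain. Of the 7 genes of this list 5 were tested in each comparison (6 after ConA, with Aldh3a1). The medians of those tested were 1.05 (ANIT), 0.87 (APAP), 0.62 (MDA), 1.72 (TAA), 0.83 (CCl4), 1.32 (GAL) and -0.84 (ConA), beside -0.01 to 0.10 over all genes. With library totals the median was 2.07 after GAL and -1.39 after ConA.

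**Figure D4:**
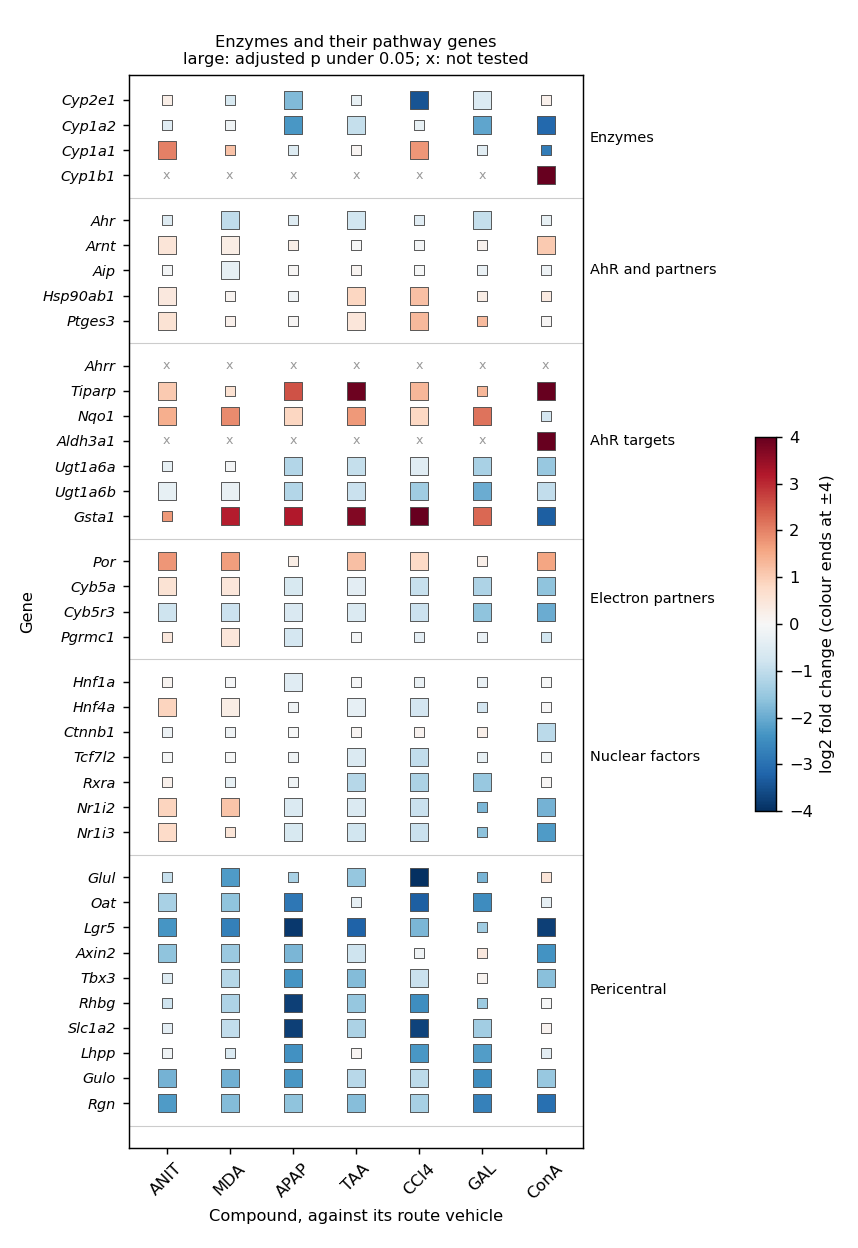
Log2 fold change (colour, ending at 4 in either direction) of the 4 enzymes and of fixed lists of related genes after each compound against its route vehicle; large squares passed the test, small squares did not, and x marks genes that were not tested. In the ConA column Tiparp is higher, while Cyp1a2 and Gsta1 are lower. Aldh3a1 and Cyp1b1 passed the count filter there through the ConA mice, and the large square of Aldh3a1 is not read as a call.

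The electron partners of the enzymes moved apart. Por, the reductase that feeds all 4, was higher after ANIT (1.77 ± 0.20), MDA (1.68 ± 0.19), ConA (1.59 ± 0.24), TAA (1.2 ± 0.2) and CCl4 (0.81 ± 0.17), each with an edgeR adjusted p of 0.00502 or lower. It was not called after APAP (0.29) or GAL (0.23). In the ConA mice, Por was at 338 to 513 CPM against 66.7 to 224 in the 17 vehicle mice. Cyb5r3, which reduces cytochrome b5, was lower after all 7 compounds, most after ConA (-1.99 ± 0.22) and GAL (-1.62 ± 0.28). Cyb5a was lower after ConA (-1.60), GAL (-1.23), CCl4 (-0.91), APAP (-0.63) and TAA, and higher after ANIT and MDA. Pgrmc1, a haem protein that binds P450 enzymes, was lower after APAP (-0.69) and higher after MDA (0.49). With library totals the falls of Cyb5r3 and Cyb5a lost their calls after CCl4 (-0.43 and -0.48) and GAL (-0.84 and -0.46).

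Nuclear factors of the hepatocyte were lower in several of the groups where an enzyme fell. Nr1i3, the constitutive androstane receptor, and Nr1i2, the pregnane X receptor, were lower after ConA (-2.27 ± 0.31 and -1.88 ± 0.19). Both were also lower after APAP (-0.63 and -0.59), TAA and CCl4, and both were higher after ANIT. Rxra, the partner of many nuclear receptors, was lower after GAL (-1.52), CCl4 (-1.27) and TAA (-1.14). Hnf4a, the hepatocyte master factor, was higher after ANIT (0.90) and MDA (0.30) and was called lower after TAA (not against all 17 vehicle mice) and CCl4. Ctnnb1, the beta-catenin of Wnt signalling, was lower after ConA. Of 7 such factors 3 were called lower after APAP, 5 after TAA, 5 after CCl4, 1 after GAL and 3 after ConA. With library totals these counts were 0, 5, 1, 0 and 3, and the list's median after GAL went from -0.73 to 0.04. Higher calls numbered 3 after ANIT and 2 after MDA (Hnf4a and Nr1i2), with 0 lower after either. With library totals 2 were higher and 1 lower after ANIT, where Nr1i3 (0.53) lost its call, and 1 was higher after MDA.

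Other genes of the pericentral zone, where Cyp2e1 and Cyp1a2 are made, were called lower in differing numbers, from 5 to 9 of 10. Of 10 such genes, 9 were called lower after APAP, MDA and CCl4, 8 after TAA and 5 after ANIT, GAL and ConA, and 0 were called higher against the route vehicle. Against all 17 vehicle mice 1 of them, Glul, was called higher after ConA. With library totals in place of TMM, 1 was higher and 3 were lower after GAL. The median log2 fold changes were -2.40 (APAP), -2.08 (CCl4), -1.66 (GAL), -1.54 (MDA), -1.41 (TAA), -1.10 (ANIT) and -0.98 (ConA), beside -0.01 to 0.10 over all genes. Their summed level was 1340 to 2020 CPM in the 17 vehicle mice, and it was 308 to 464 CPM after CCl4 and 609 to 1870 CPM after ConA, the latter overlapping the vehicle range. On the TMM scale Lgr5, a receptor of the Wnt pathway, led the fall after APAP (-3.86), ConA (-3.76), TAA (-3.25), MDA (-2.73) and ANIT (-2.37). It had 0.0419 to 0.326 CPM after APAP and 0.0159 to 0.504 CPM after ConA, against 1.21 to 3.83 CPM in the 17 vehicle mice. At so low a level its lead is a description. Rgn, a calcium-binding enzyme, led after GAL (-2.69).

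Glul, the glutamine synthetase of the innermost pericentral hepatocytes, had its largest fall after CCl4, as Cyp2e1 did, and on the TMM scale against the route vehicle no other comparison called both genes (with library totals APAP and MDA did). It was lower after CCl4 (-4.37 ± 0.15), where all 7 mice had 16.3 to 27.0 CPM against 321 to 646 in the 17 vehicle mice. It was also lower after MDA (-2.27 ± 0.46) and TAA (-1.56 ± 0.24). After ConA it had 244 to 951 CPM (0.51 ± 0.42, not called), and the differences after ANIT (-0.91), APAP (-1.29) and GAL (-1.86) were not called either. Against all 17 vehicle mice it was also called lower after ANIT (-0.89) and GAL (-1.96) and higher after ConA (0.52). With library totals it was called lower after ANIT (-1.12) and APAP (-1.64), and its value after ConA was -0.15. APAP mouse 1 had 979 CPM and the other 5 had 24.5 to 54.5. Mouse 1 also had the highest Glul of the MDA group (437 CPM, next 83.7) and of the TAA group (324 CPM, next 148), as it did for Cyp2e1. In the ANIT group mouse 1 had the lowest of both (38.1 CPM of Glul). Periportal genes, the opposite zone, were called lower for 2 of 8 after ANIT and MDA, 3 after ConA, 4 after APAP, 6 after TAA, 7 after GAL and 8 after CCl4. With library totals these were 5 after GAL, 7 after CCl4, 3 after MDA and 5 after ConA. Hsd17b13, a lipid droplet protein, was called higher after ANIT, MDA, TAA and ConA (in ConA not with library totals). The list's median ran from -3.00 (GAL) to -0.04 (ANIT), beside -0.01 to 0.10 over all genes. In CCl4 livers 4 of 6 hepatocyte markers were lower as well (3 with library totals), with sums of 31000 to 39100 CPM against 61500 and 66700 in CIP, so markers of both zones and of the whole hepatocyte moved with the fall of Cyp2e1 there. Their part in it was not tested.

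Over 12372 genes that averaged 1 CPM or more, those most like each member over the 57 mice were found by Pearson's r of log2(CPM + 1), given here as a description of mice that share groups and scaling. Nearest to Cyp2e1 were Cyp2c37 (r = 0.935, and 0.941 for deviations from group means), Phyh, an enzyme of peroxisomal alpha-oxidation (0.875 and 0.738), Slc1a2, a glutamate transporter (0.869 and 0.630), Cyp2c40 (0.869 and 0.735) and the paraoxonase Pon1 (0.859 and 0.797). Cyp2c genes are close copies of each other, so their counts may be split uncertainly. Nearest to Cyp1a2 were Akr1c6, a hydroxysteroid dehydrogenase (0.869 and 0.861), Ugt1a6a (0.839 and 0.701), Cyp2c29 (0.839 and 0.856), Sord, sorbitol dehydrogenase (0.838 and 0.830) and Rgn (0.833 and 0.869).

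Cyp1a1 had weaker neighbours: Htatip2 (r = 0.726, deviations 0.405), the tRNA exporter Xpot (0.692 and 0.307), Mrpl24, a mitochondrial ribosomal protein (0.688 and 0.263), Zscan22 (0.661 and 0.328) and Josd1 (0.661 and 0.462). Nearest to Cyp1b1 were Serpina3i (0.972 and 0.788), A2m, alpha-2-macroglobulin (0.968 and 0.823), Cxcl5, a neutrophil chemokine (0.966 and 0.734), Duoxa2 (0.965 and 0.623) and Nos2 (0.959 and 0.567), the last the inducible nitric oxide synthase. The Cyp1b1 values are low in 50 mice and high in the 7 ConA mice, so that its r over all mice mainly describes that contrast. Serpina3 genes are also close copies of each other.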

How the data were processed

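RNA-seq of 57 mouse livers was used. The authors deposited a matrix of estimated counts per gene, 54307 genes by 57 mice, and R 4.1.3, Salmon 1.6.0 and GRCm39 are named in the submitters' processing notes with no role. How Salmon's transcript values became gene values, and the annotation, are not given in the sources used here. Libraries were stranded (TruSeq) and single-end per the labels' protocols. In 4101 single-transcript genes the smallest nonzero value was lower the longer the transcript (rank correlation -0.939, with genes not independent replicates), so the values look length-corrected. Counting intervals that assume whole reads were therefore not computed.

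Symbols came from GENCODE M21, which matched 51482 IDs. Values were rounded for edgeR 4.0.16 (R 4.3.3, limma 3.58.1; data-table package 1.17.8): TMM, filterByExpr (minimum count 10), quasi-likelihood test, two-sided, 2 groups per fit, Benjamini-Hochberg adjustment over all genes tested, threshold 0.05. SEs come from the F statistic. DESeq2 1.42.0 and limma on log2(CPM + 1) were alternatives. Ratios used exact permutation tests (scipy 1.17.1) on log2 values with a pseudocount of 1 CPM. Where Cyp1b1 failed the filter, edgeR without it and an exact test with 0.1 CPM were added after seeing the data. On simulated counts the edgeR test recovered most genes given the larger of 2 changes in the comparisons with Ctrl and fewer against CIP after CCl4. It recovered very few after GAL and ConA, with most of the few GAL calls false. The simulation changed 200 genes, where the data called 4416 (GAL) and 4827 (ConA), so its rates need not hold for these data. Calls and missing calls against CIP and CIV, each with 2 mice, are still taken as less certain. Tables and plots used Python 3.11.15 with numpy 2.4.6, pandas 2.3.3 and matplotlib 3.10.9.

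Replicate numbers come from the sample labels. Other settings tried were library totals, TMM without mitochondrial and the 50 most abundant genes, no filter, all groups in 1 fit, all 17 vehicle mice, a replicate block, the number range as a covariate, mice numbered above 4, and leaving out each mouse. Named genes are the members, the 2 genes of each list with the largest called change in a comparison, Ahr, Ahrr, Tiparp, Nqo1, Por and Glul, and the 5 genes most like each member. Further list genes are named beside these to give the direction of a list. The members and lists were chosen with earlier results of these data known.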

Additional observations from a re-analysis of the deposited data

Results flagged for a closer look

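In 28 combinations of a member and a treated group, 8 had a mouse farther from the rest than a 95% limit for a single outlying value allows. For values with a normal spread, chance alone passes this limit in about 1 in 20 groups. The limit was applied to plain CPM and the combinations share mice, so the count of 8 is not read against that rate.

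Cyp2e1 was 4590 CPM in MDA mouse 1, with the next mouse at 1930 CPM, and 4030 CPM in TAA mouse 1, with the next at 1920 CPM. Cyp1a1 was 7.95 CPM in the same MDA mouse, with the next at 1.35 CPM, and 1.45 CPM in TAA mouse 8, with the next at 0.752 CPM. In the ConA group Cyp1a1 was highest in mouse 12 at 0.352 CPM, with the next at 0.151 CPM. Cyp1a2 was 291 CPM in GAL mouse 2, with the next at 107 CPM. Cyp1b1 was 1.42 CPM in APAP mouse 1, with the next at 0.347 CPM, and 0.0754 CPM in MDA mouse 2, the lowest there, with the next at 0.229 CPM. Mice numbered 1 held 4 of these 8 values. The labels do not say what a number stands for, and its part in these values was not tested.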

How the results depend on the processing

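Log2 fold changes are against the route vehicle, and the cause of a changed call was not tested. DESeq2 and TMM without mitochondrial and abundant genes kept direction and call in 22 of 22 tests. Library totals turned Cyp2e1 after GAL to 0.19, ended the call of Cyp1a2 after GAL (-1.29), and gave calls to Cyp1a2 after ANIT (-0.68), Cyp2e1 after MDA (-0.73) and Cyp1a1 after ConA (-3.22). limma ended those of Cyp1a1 after ANIT (0.78) and CCl4 (1.12) and gave calls to Cyp2e1 after MDA (-0.88) and Cyp1a1 after ConA (-0.57). It called 10 in place of 17 group pairs for Cyp1a1, a count that is not read. No filter ended the calls of Cyp2e1 after APAP (-1.80) and GAL (-0.53) and of Cyp1a1 after CCl4 (1.78). All 10 groups in 1 fit ended those of Cyp1a2 after TAA (-1.01), Cyp1a1 after CCl4 (1.72) and Cyp2e1 after GAL (-0.57), and called Cyp1a1 after ConA (-2.88). Mice numbered above 4 gave -2.72 and -2.76, not called, for Cyp2e1 and Cyp1a2 after APAP, and called Cyp2e1 after MDA (-1.03) and TAA (-0.71). With the number range as a covariate Cyp2e1 was called after MDA (-0.77). All 17 vehicle mice called Cyp2e1 after MDA (-0.62), Cyp1a2 after CCl4 (-0.44) and Cyp1a1 after ConA (-2.66). Cyp1a1 after ConA passed the filter through the vehicle mice alone, so the calls it gained are not read. Against them the log2 ratio Cyp1a2 to Cyp2e1 passed the exact test for CCl4 (3.14), GAL (-1.72) and ConA (-3.29). The values of Cyp1a1 to Cyp1a2 against them were 1.58, 2.27 and 2.56. They are not read, since 1 CPM was added to a gene mostly below it: the plain share after ConA had a median of 0.0732%, against 0.142% in the vehicle mice. With 0.1 CPM added in place of 1, 14 of 14 ratios kept their direction, and the 8 tests against Ctrl kept their side of the threshold (the other 6, with 2 controls, cannot pass it), while Cyp1a1 to Cyp1a2 after ConA went from 2.54 to 0.92. For Cyp1b1 under the filter, the exact permutation test ended the APAP call (p = 0.106) and gave an unadjusted p of 0.0168 for ANIT (0.0504 adjusted).

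A replicate block was fitted where groups shared 2 or more numbers (not CCl4 or ConA). Same-numbered mice had correlations of deviations from -0.15 to 0.28 (TAA 0.28, 0.11, 0.15 and 0.01). No comparison with 2 or more shared numbers had every pair over 0.1, so the numbers were not taken to pair mice; the labels do not say what they stand for. The block gave Cyp1a1 after ANIT 1.81, Cyp2e1 and Cyp1a2 after APAP -2.94 and -3.23, all not called, and Cyp2e1 after MDA -1.04, called. Its counts of called genes were 962 (ANIT, 3967 without it), 230 (APAP, 4436), 2600 (MDA, 4570), 4869 (TAA, 7247) and 3982 (GAL, 4416). Counts of called genes against all 17 vehicle mice were 8014 for GAL and 9384 for ConA (4827 against CIV). Mice numbered above 4 gave 3075 for ConA and 3020 for MDA. Leaving out 1 mouse gave 1617 (without CIP 8) to 6483 (without GAL 2) for GAL, 3015 for CCl4 without CIP 8 (5152 with it) and 2540 for ANIT without ANIT 3.

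Leaving out 1 mouse at a time gave these ranges. Cyp2e1 ran from 0.07 to 0.53 after ANIT, from -2.71 to -1.50 after APAP, from -1.11 to -0.52 after MDA, from -0.74 to -0.17 after TAA, from -3.54 to -3.37 after CCl4, from -0.69 to -0.43 after GAL, from 0.08 to 0.36 after ConA. Cyp1a2 ran from -0.62 to -0.19 after ANIT, from -2.65 to -2.06 after APAP, from -0.32 to -0.08 after MDA, from -1.23 to -0.82 after TAA, from -0.45 to -0.21 after CCl4, from -2.71 to -1.88 after GAL, from -3.34 to -3.00 after ConA. Cyp1a1 ran from 0.94 to 2.40 after ANIT, from -0.87 to -0.38 after APAP, from -0.19 to 1.35 after MDA, from -0.27 to 0.21 after TAA, from 1.44 to 2.08 after CCl4, from -0.77 to -0.07 after GAL, from -3.68 to -2.57 after ConA. Cyp1b1, which passed the filter through the ConA mice, ran from 3.76 to 4.62 after ConA. Of these fits 264 kept their side of the threshold, 34 lost a call and 5 gained one. The log2 ratio Cyp1a2 to Cyp2e1 ran from -1.32 to -0.24 after ANIT, from -0.53 to 0.10 after APAP, from 3.04 to 3.22 after CCl4, from -3.46 to -3.26 after ConA, from -2.15 to -1.52 after GAL, from 0.54 to 0.83 after MDA, from -0.76 to -0.47 after TAA. Cyp1a1 to Cyp1a2 ran from 1.00 to 2.01 after ANIT, from 2.67 to 3.75 after APAP, from 1.28 to 1.48 after CCl4, from 2.26 to 2.70 after ConA, from 1.91 to 2.37 after GAL, from 0.25 to 0.71 after MDA, from 0.98 to 1.32 after TAA.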
